A study of Mus musculus with 18 samples.

Results

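Mouse epiblast-like cells (EpiLC) labelled Esrrb KO were compared with WT EpiLC by sequencing of polyadenylated RNA. The comparison used 6 of the 18 libraries of the study, chosen by their labels: KO libraries A5, B1 and A2 and WT libraries 1, 2 and 3. All 18 derive from SGET embryonic stem cells of strain B6CBA/129, a line with reporters for Stella (Dppa3) and for Esg1 (Dppa5a). The other 12 libraries are primordial germ cell-like cells (PGCLC) of both genotypes, sorted by these reporters at day 3 or at a later time that the labels give as 5 days or as d6. Stem cells of both genotypes were kept on gelatin in 2i/L medium. EpiLC of both genotypes were made on fibronectin in medium with bFGF at 12.5 ng/ml and activin A at 20 ng/ml and were not sorted. Each KO name stands for 1 library in EpiLC and recurs at both later times, and is taken here as a line. The labels give neither the deleted part of Esrrb nor whether the WT replicates were separate cultures. The p-values thus measure the spread between libraries of the same group, over all 18 libraries, which may be technical.

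Esrrb encodes an orphan nuclear receptor that binds DNA as a monomer at an extended half-site. It belongs, with Nanog, Klf4 and Tfcp2l1, to the gene network that holds mouse embryonic stem cells in the naive state. Naive cells given activin and FGF move to a formative state close to the epiblast before gastrulation. In that step naive factors are turned down, and Otx2, Fgf5, Pou3f1 and the de novo DNA methyltransferases are turned up. EpiLC are the usual starting cells for PGCLC.

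Levels are given as CPM (counts per 1e6 counts of the library) scaled by TMM, in the order WT 1, 2, 3 and KO A5, B1, A2. Fold changes are log2 values of KO over WT from edgeR's quasi-likelihood test. Their standard errors (SE) were derived from it, as the size of the fold change over the square root of the F statistic. The fold changes set 3 EpiLC libraries against 3, or 2 KO libraries against 3 without KO A2. The spread came from 1 model of all 18 libraries, less KO A2 where it is left out, and so also from the PGCLC libraries. A gene is called where the Benjamini-Hochberg adjusted p over all 12856 genes tested is under 0.05.

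Esrrb itself was at 33.3, 27.9 and 20.6 CPM in WT and at 6.71, 4.54 and 39.8 CPM in KO. KO A5 and B1 lay below every WT library, while the library labelled KO A2 lay above every WT library, against its label. With all libraries the difference did not pass (log2 fold change -0.68 ± 0.52, adjusted p = 0.401). Without KO A2 Esrrb fell (-2.26 ± 0.37, adjusted p = 0.00375), and the call held with each of the 5 remaining libraries left out (adjusted p up to 0.0348). In PGCLC, with the libraries of line A2 included, Esrrb was lower in KO at both times. The values were -2.13 ± 0.43 at day 3 (adjusted p = 0.00554) and -1.89 ± 0.42 at the late time (adjusted p = 0.00598). Since the deleted part is not given, the counts left in A5 and B1 do not show which part of the transcript remained. Since KO A2 goes against its label, most results below are given with and without it. A fold change or call given alone is from the fit with all libraries, unless said otherwise.

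The EpiLC libraries held 3941029 to 4327028 counts and 14725 to 15123 detected genes. The 6 EpiLC markers (Fgf5, Otx2, Pou3f1, Dnmt3a, Dnmt3b, Sox3) were present in every library, with a summed level of 5021 to 5131 CPM in WT, 3352 in KO A5, 3850 in KO B1 and 1692 in KO A2. The 8 naive markers summed to 184 to 220 CPM in WT, 212 in A5, 146 in B1 and 383 in A2. Fibroblast markers summed to 42.0 to 47.2 CPM in WT, 79.0 and 79.9 in A5 and B1 and 428 in A2, and trophoblast markers to 4.17 to 6.18, 15.5, 5.80 and 136 CPM. Mesoderm markers summed to 1.98 to 2.88 CPM in WT, 9.49 in A5, 5.04 in B1 and 43.3 in A2. Among them Hand1 had 3, 4 and 3 counts in WT and 35, 8 and 169 in KO. Endoderm markers summed to 1.31 to 2.35, 3.94, 4.79 and 13.1 CPM, and neural ectoderm markers to 8.89 to 9.39, 5.56, 11.1 and 28.8 CPM. Mesp1, which defines early mesoderm, and Elf5, which defines trophoblast, had 0 counts in all 6 libraries. In unsorted bulk samples, a change in the share of cells of a type cannot be told apart from a change in RNA per cell.

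KO A2 stood apart in further respects. Counts of pairs of libraries differed by a chi-square per degree of freedom of 1.13 to 1.70 between WT libraries, 4.12 between A5 and B1, and 34.1 and 36.0 between A2 and these. The Y-linked genes Ddx3y, Eif2s3y and Uty had 0 counts in A2 in EpiLC and at both later times, and were detected in the other EpiLC libraries. The median gene of chromosome 11 was lower by a log2 ratio of -0.48 in A2, that of chromosome 1 higher by 0.28, and that of chromosome 16 lower in both B1 (-0.46) and A2 (-0.45). In the WT libraries the medians of these chromosomes lay between -0.03 and 0.03. The part of these shifts in the results below was not tested, beyond counts without the genes on the shifted chromosomes.

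**Figure D1:**
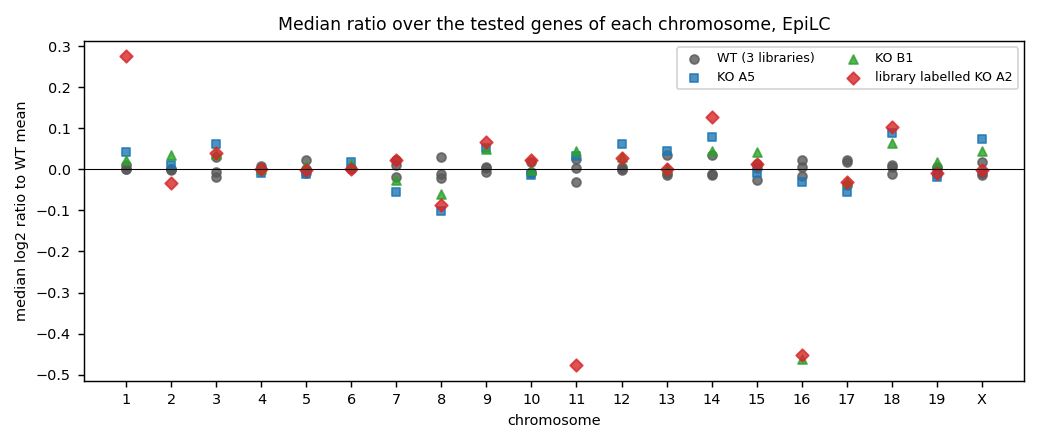
Median log2 ratio of single EpiLC libraries to the WT mean (y axis) over the tested genes of each autosome and the X chromosome (x axis), with 1 symbol per library. KO A2 departs at chromosomes 1 (0.28), 11 (-0.48) and 16 (-0.45), and KO B1 at chromosome 16 (-0.46).

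With all 6 EpiLC libraries kept in the fit of 18, 1424 of the 12856 genes tested (11.1%) differed between KO and WT EpiLC. Of these, 891 were higher in KO (6.93%) and 533 lower (4.15%). Without KO A2, 588 genes (4.57%) differed, 300 higher (2.33%) and 288 lower (2.24%). The same direction was called with and without KO A2 for 466 genes (3.62%), 255 higher (1.98%) and 211 lower (1.64%). The 2 fits share 5 EpiLC libraries, so the 466 genes are no independent replication. The median log2 fold change over all genes tested was 0.01 both ways. The 3 KO libraries lay wholly on one side of the 3 WT libraries for 4150 genes (32.3%). Outside the shifted chromosomes 1228 of 10635 genes (11.5%) were called, and 511 (4.8%) without KO A2. Limma-trend with a replicate block, which ties libraries of the same genotype and replicate name across the 3 times, gave 914 calls without KO A2. Of these, 655 were higher. Limma-trend without the block gave 798, 586 of them higher. Values with the block here and below thus differ from those of edgeR in method as well as in the block. When the 6 EpiLC libraries were fitted on their own, edgeR called 0 genes with KO A2 (2571 at an unadjusted p under 0.05) and 2050 without it, 576 of them among the 588. In the fit of all 18 libraries, DESeq2 called 1822 genes and limma 1307. Leaving out single libraries moved the 1424 calls to between 174 and 2449. Without WT 1, WT 2 or WT 3 they fell most, and most single genes named below lost their call in at least 1 of these fits.

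KO A2 was compared with the other lines gene by gene. Over all genes tested, A5 and B1 lay on the same side of the WT mean for 72.1%, A2 and A5 for 65.9%, and A2 and B1 for 63.7%. Of the 466 genes called both ways, all 3 KO libraries lay on the same side in every case, which the calls largely fix. A2 was the highest of the KO libraries in 194 of the 255 higher genes and the lowest in 123 of the 211 lower genes. The median log2 ratio of the higher genes was 0.82 in A5, 0.76 in B1 and 1.38 in A2, and that of the lower genes -0.51, -0.49 and -0.73. A further 122 genes were called only without KO A2, and A2 lay on the side of the other lines in 36 of them. In these 122 the median size of the log2 ratio was 0.64 in A5, 0.85 in B1 and 0.27 in A2. They were chosen for losing the call when A2 was added, so a small or opposite ratio in A2 is in part fixed by the choice.

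**Figure D2:**
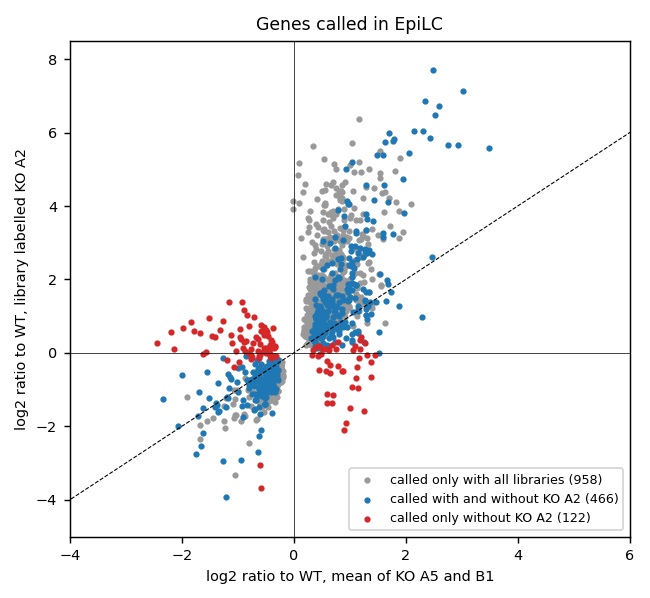
Log2 ratio to WT in the library labelled KO A2 (y axis) against the mean log2 ratio of KO A5 and B1 (x axis) for genes called in EpiLC, with 1 point per gene and a dashed line where both are equal. The 466 genes called both ways lie in the lower left and upper right, with the higher ones mostly above the line. Most of the 122 genes called only without KO A2 lie across 0 on the y axis, which their choice in part fixes.

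Promoter sequences are shown because the half-site that Esrrb is known to bind, TCAAGGTCA, can be read directly in them. The windows run from 250 bases before to 50 after the start of a gene (RefSeq, GRCm38.p6), and both strands were searched for TCAAGGTCA and for its core AAGGTCA, which is contained in it. Of the 4 genes shown, Efemp2 and Atp5g3 hold the long form and Eno1 and Lmna the core alone. Efemp2 encodes a fibulin of elastic fibres (log2 fold change 2.09), Lmna the nuclear lamins A and C (2.82), Atp5g3 a subunit of ATP synthase (-0.32), and Eno1 the glycolytic enzyme enolase (-0.66). Efemp2 lies at chr19:5474440-5474739 on the plus strand, Lmna at chr3:88493263-88493562 on the minus strand, Atp5g3 at chr2:73911277-73911576 on the minus strand and Eno1 at chr4:150236458-150236757 on the plus strand. Each sequence reads 5′ to 3′ along its gene, with the match in capitals (a match on the strand opposite to the gene reads TGACCTTGA).
Efemp2: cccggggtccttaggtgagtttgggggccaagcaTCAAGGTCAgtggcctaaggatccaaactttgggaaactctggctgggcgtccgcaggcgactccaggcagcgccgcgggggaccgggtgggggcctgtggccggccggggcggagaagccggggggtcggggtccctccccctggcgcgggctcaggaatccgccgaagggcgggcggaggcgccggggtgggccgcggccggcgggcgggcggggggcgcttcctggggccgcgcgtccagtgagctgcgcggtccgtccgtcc
Lmna: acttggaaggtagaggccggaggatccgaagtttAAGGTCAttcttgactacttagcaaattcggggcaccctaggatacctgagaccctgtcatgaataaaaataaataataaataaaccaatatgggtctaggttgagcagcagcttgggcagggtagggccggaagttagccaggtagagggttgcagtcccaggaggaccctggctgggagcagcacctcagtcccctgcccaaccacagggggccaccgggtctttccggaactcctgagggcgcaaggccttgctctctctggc
Atp5g3: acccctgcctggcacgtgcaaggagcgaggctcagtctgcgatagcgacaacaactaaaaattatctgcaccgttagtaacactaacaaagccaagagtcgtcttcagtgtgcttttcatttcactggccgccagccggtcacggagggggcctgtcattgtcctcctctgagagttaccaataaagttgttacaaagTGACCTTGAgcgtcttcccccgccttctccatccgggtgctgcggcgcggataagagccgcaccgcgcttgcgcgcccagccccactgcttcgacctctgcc
Eno1: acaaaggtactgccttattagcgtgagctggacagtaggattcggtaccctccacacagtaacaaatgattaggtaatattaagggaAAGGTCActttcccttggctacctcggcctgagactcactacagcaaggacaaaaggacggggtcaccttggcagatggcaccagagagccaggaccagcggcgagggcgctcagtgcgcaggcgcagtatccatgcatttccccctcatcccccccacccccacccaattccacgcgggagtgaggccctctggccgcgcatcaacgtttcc

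The long form was rare in every group of genes. It was present for 33 of the 9162 tested genes with a promoter in the table (0.360%), for 3 of 398 genes called lower (0.754%: Fam131c, Msrb2 and Atp5g3) and for 2 of 634 called higher (0.315%: Polk and Efemp2). The core was present for 357 of the 9162 (3.90%), 17 of the 398 (4.27%) and 20 of the 634 (3.15%). In all promoters of the table the shares were 0.466% for the long form and 5.38% for the core. Among genes called lower with and without KO A2, 0 of 155 held the long form, and Fam131c, Msrb2 and Atp5g3 are not among these genes. The core was held by 7 of the 155 (4.52%), Eno1 among them. Among genes called higher both ways, 1 of 185 (0.541%) held the long form, Efemp2. A match of these letters is a description of the window and not a binding site.

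The leading genes that rose in KO EpiLC include genes of the extracellular matrix, the contractile cytoskeleton and secreted signals. The 14 leading genes reported here were called both ways, did not overlap between KO and WT, and reached at least 5 CPM on average in KO. Krt8, a keratin of simple epithelia, was at 7.86, 8.40 and 7.56 CPM in WT and 68.8, 29 and 487 CPM in KO. Col1a1, the main chain of fibrillar collagen, was at 3.41, 3.71 and 2.09 CPM in WT and 43.1, 34.3 and 164 CPM in KO. For both genes KO B1 was the lowest KO library and A2 the highest by far, and no KO library overlapped WT. Krt8 rose by a log2 fold change of 4.61 ± 0.84 (adjusted p = 0.008) and by 2.62 ± 0.47 without KO A2 (adjusted p = 0.00747). For Col1a1 the values were 4.70 ± 0.81 (adjusted p = 0.00575) and 3.64 ± 0.70 (adjusted p = 0.0113). Together with Tagln, the actin-binding protein of smooth muscle, they kept the call with each of the 6 EpiLC libraries left out (adjusted p up to 0.0443 (Krt8)).

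The other leading genes that rose include signals, receptors and enzymes, several of them close to 0 in WT. Wisp1, a secreted matricellular protein induced by WNT, had 1 count in the 3 WT libraries and 488 in KO, a ratio of 473 (95% counting interval 84.5 to 18721), which was 31.1 (5.00 to 1286) without KO A2. Tgfbr2, the type II receptor for TGF-beta, had 3 and 282 counts, a ratio of 91.1 (30.9 to 444), or 14.3 (4.44 to 73.4) without KO A2. Wnt7b, a WNT ligand, was at 1.05, 0 and 0.261 CPM in WT and 3.94, 3.28 and 92.9 CPM in KO. Csf1, the growth factor of macrophages, was at 1.83, 0.494 and 0.782 and 15.7, 7.56 and 197 CPM. In A2 these genes were many times above A5 and B1, which were themselves above every WT library. Bmp1, a protease that processes procollagen, rose by 4.51 ± 0.97 (adjusted p = 0.0142; 1.88 ± 0.46 without KO A2). Tgm2, which cross-links matrix proteins, rose by 5.04 ± 0.99 (adjusted p = 0.0108; 2.69 ± 0.40 without KO A2), and Axl, a receptor tyrosine kinase, by 4.98 ± 0.98 (adjusted p = 0.0108; 2.45 ± 0.43). The remaining leaders were Rin3, Acta2, Prss23 and Col4a2, with log2 fold changes of 4.95, 4.86, 4.70 and 4.59 (2.84, 3.25, 1.95 and 1.82 without KO A2). These 11 lost the call without 2 or 3 of the WT libraries, with adjusted p up to 0.0998 (Wisp1).

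**Figure D3:**
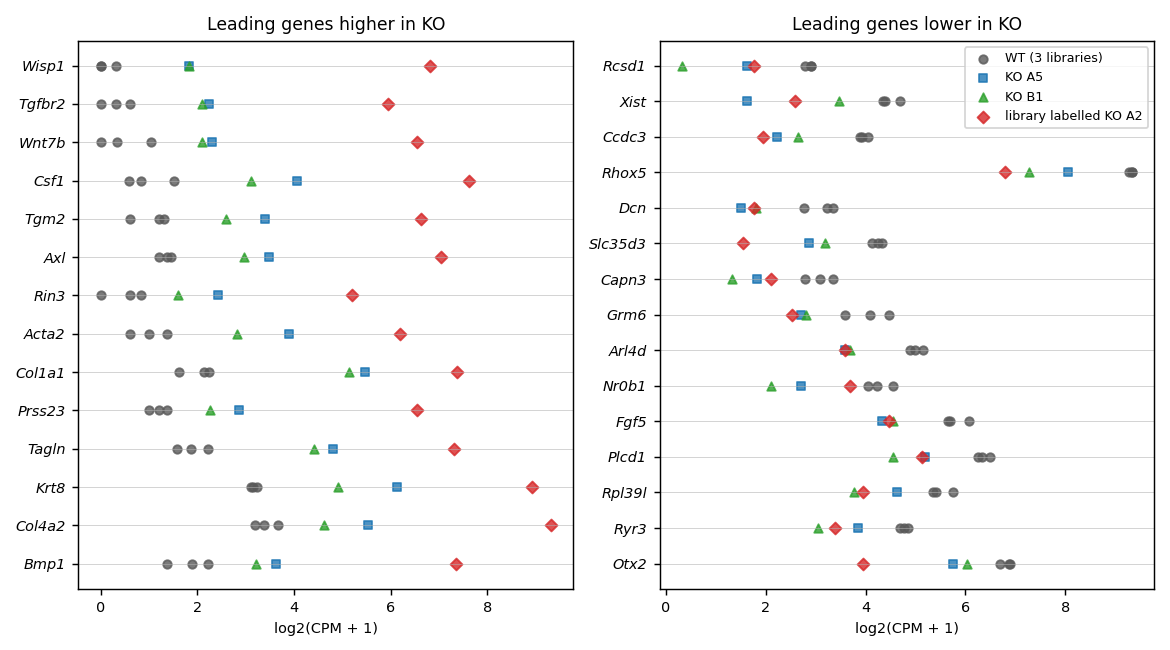
Levels of 14 leading genes higher (left) and 15 lower (right) in KO EpiLC as log2 of CPM plus 1 (x axis), with 1 point per library. On the left KO A5 and B1 lie right of the 3 WT libraries and A2 farthest right, as for Krt8 (68.8, 29 and 487 CPM in A5, B1 and A2), and on the right no KO library reaches WT.

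Some genes of the actin cytoskeleton and its focal adhesions rose. With all libraries 13 of 33 tested members rose (39.4%, against 6.93% of all genes), with a median log2 fold change of 0.81, and without KO A2 7 rose with a median of 0.27. Tagln was at 2.62, 1.98 and 3.65 CPM in WT and 27.1, 20.4 and 157 CPM in KO, without overlap (4.63 ± 0.73, adjusted p = 0.00395; without KO A2 3.11 ± 0.38, adjusted p = 0.000428). Acta2, the actin of smooth muscle, was at 0.524, 0.988 and 1.56 and 13.9, 6.05 and 71.9 CPM (4.86 ± 1.01, adjusted p = 0.0131; without KO A2 adjusted p = 0.0293). Lmna, whose promoter is printed above, was at 8.91, 9.88 and 12 and 23.8, 17.6 and 176 CPM (2.82 ± 0.63, adjusted p = 0.0163; without KO A2 1.02 ± 0.19, adjusted p = 0.00748). Of the targets of YAP and TEAD, the effectors of the Hippo pathway, 9 of 16 rose (median 1.22), and 5 rose and 1 fell without KO A2 (median 0.44). Myof, a membrane repair protein of this list, was at 4.19, 5.68 and 3.91 CPM in WT and 24.3, 8.82 and 211 CPM in KO (adjusted p = 0.0131, and 0.0225 without KO A2). Cyr61, a classic target, was at 19.9, 18.5 and 27.4 and 38.4, 26.7 and 356 CPM, and its call (adjusted p = 0.0268) ended without KO A2 (adjusted p = 0.232) and with the replicate block (adjusted p = 0.0622). With the block 9 actin and 6 YAP and TEAD members were higher. Of the genes named here Tagln alone held its call in every fit that left out 1 library, and the others reached adjusted p values up to 0.232 (Cyr61).

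The extracellular matrix list had 12 of 34 members higher (35.3%) and 1 lower, with a median of 1.14, and without KO A2 5 higher and 1 lower with a median of 0.50. Col4a2, a chain of basement membrane collagen, was at 9.44, 8.15 and 11.7 CPM in WT and 45.4, 23.4 and 637 CPM in KO (4.59 ± 0.92, adjusted p = 0.0113; without KO A2 1.82 ± 0.29, adjusted p = 0.00248). Its partner chain Col4a1 was at 35.1, 38 and 48 and 90.1, 51.4 and 913 CPM, and its call (adjusted p = 0.0191) narrowly ended without KO A2 (adjusted p = 0.0526). Dcn, the proteoglycan decorin, went the other way, at 5.77, 9.14 and 8.35 CPM in WT and 1.85, 2.52 and 2.38 CPM in KO (adjusted p = 0.0276; 0.0469 without KO A2). Col4a2, Col4a1 and Dcn each lost the call without each WT library in turn (adjusted p up to 0.103 (Dcn)). Of 16 integrins 2 rose (12.5%, against 6.93% of all genes), Itgav and Itgb1. Without KO A2 1 rose and 1 fell (6.25% each, against 2.33% and 2.24%). The call of Itgb1, the beta 1 chain (adjusted p = 0.0461), ended without KO A2 (adjusted p = 0.198) and with the block (adjusted p = 0.0547). Itgav, the alpha V chain, was at 28.8, 30.1 and 30.5 CPM in WT and 50.2, 44.4 and 242 CPM in KO (adjusted p = 0.0197; 0.00476 without KO A2, and up to 0.0726 without 1 WT library). The summed fibroblast markers given above moved with these genes, most in A2, and their part was not tested. Among those markers Thy1 had 102, 100 and 116 counts in WT and 63, 82 and 12 in KO, and Col3a1 had 1, 1 and 6 in WT and 0, 1 and 274 in KO. Thus Thy1 was lowest where Col1a1 was highest, and Col3a1 was above its WT range in A2 alone.

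**Figure D4:**
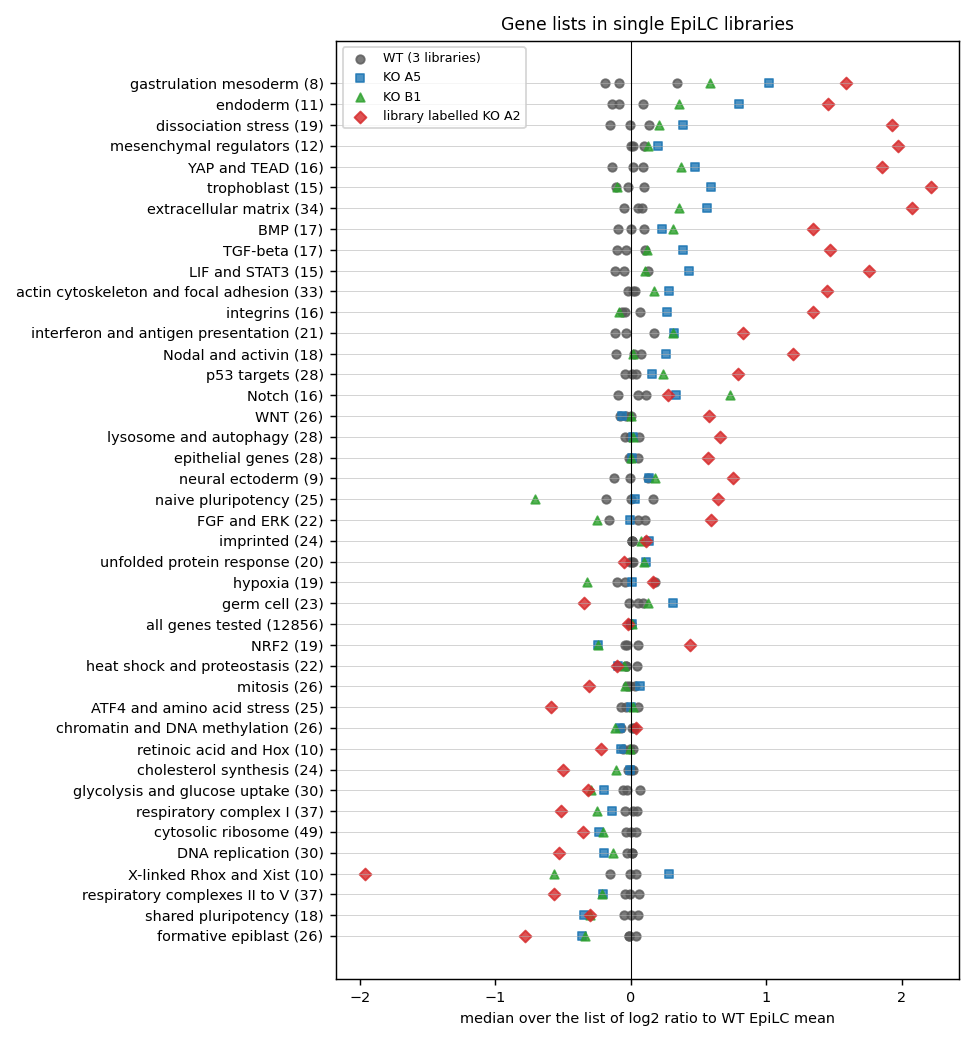
Median log2 ratio to the WT mean (x axis) of the tested genes of each list (y axis, number of genes in brackets) in single EpiLC libraries, with 1 symbol per library. For the extracellular matrix the medians are 0.56 in A5, 0.36 in B1 and 2.07 in A2, while for shared pluripotency genes they are -0.35, -0.30 and -0.30.

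Some receptors and response genes of several signals rose, fewer of them without KO A2. The TGF-beta list had 7 of 17 members higher (41.2%; median 0.86), and without KO A2 3 higher and 1 lower (median 0.27). Besides Tgfbr2 it includes Thbs1, an activator of latent TGF-beta, at 14.9, 15.1 and 11 CPM in WT and 32.4, 16.4 and 449 CPM in KO. The call of Thbs1 (adjusted p = 0.0225) ended without KO A2 (adjusted p = 0.217) and with the replicate block (adjusted p = 0.0877). In the Nodal and activin list 4 of 18 members rose (22.2%) and 1 fell (5.56%; median 0.49), against 6.93% and 4.15% of all genes. Without KO A2 1 rose and 1 fell (5.56% each, against 2.33% and 2.24%; median 0.20). Furin, the protease that activates pro-Nodal, was at 13.4, 13.3 and 12.5 CPM in WT and 27.8, 26.5 and 91.7 CPM in KO (1.89 ± 0.36, adjusted p = 0.00887; without KO A2 1.05 ± 0.13, adjusted p = 0.000436). Foxh1, the DNA-binding partner of SMAD2 and SMAD3, was at 93.3, 100.3 and 97.3 and 57.4, 63.5 and 39.8 CPM and fell by -0.86 ± 0.13 (adjusted p = 0.00386; without KO A2 -0.68 ± 0.10, adjusted p = 0.00182). Neither gene overlapped between KO and WT, and both held with every single library left out (adjusted p up to 0.0443 (Furin)). Smad7, the inhibitor induced by the pathway, was at 4.69 to 6.82 CPM in WT and in A5 and B1 at 6.48 and 6.55 CPM, and only A2 stood out at 128 CPM (adjusted p = 0.0454; 0.906 without KO A2; 0.136 with the block). Nodal itself did not pass, at 32.2, 27.2 and 35.5 CPM in WT and 27.3, 15.9 and 72.1 CPM in KO (adjusted p = 0.674).

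The BMP list had 8 of 17 members higher (47.1%; median 1.06), but 1 without KO A2 (median 0.27), while the block gave 5 without KO A2. Id4, an inhibitor of basic helix-loop-helix factors, was at 0.524, 0.988 and 0.522 CPM in WT and 1.39, 4.29 and 2.38 CPM in KO (adjusted p = 0.0244; 0.0636 without KO A2, and 0.028 with the block). Gata2, a transcription factor of this list and of the trophoblast, had 1 count in WT and 101 in KO, a ratio of 97.9 (17.2 to 3905), with 13 counts in A5 and B1 (19.3; 2.89 to 818) and an adjusted p of 0.0184, or 0.068 without KO A2 (0.00953 with the block). Both also lost the call without any 1 WT library (adjusted p up to 0.0903 (Id4)). The LIF and STAT3 list had 7 of 15 higher (46.7%; median 0.84) and 3 without KO A2 (median 0.28). Stat3, the transcription factor that carries the LIF signal, was at 15.7, 16.3 and 15.9 CPM in WT and 39.6, 31.8 and 96.9 CPM in KO, without overlap. It rose by 1.81 ± 0.32 (adjusted p = 0.00658), and by 1.16 ± 0.18 without KO A2 (adjusted p = 0.00248), and held with any 1 library left out (adjusted p up to 0.0387). Socs3, the feedback inhibitor that STAT3 induces, was at 4.98, 5.44 and 6.52 and 14.4, 10.1 and 31.7 CPM (adjusted p = 0.0113; 0.0282 without KO A2; up to 0.0524 without WT 1 or WT 2). Junb, an AP-1 subunit, was at 3.93, 1.48 and 1.83 and 12.5, 7.81 and 70.7 CPM (adjusted p = 0.0106; 0.00248 without KO A2; up to 0.0516 without WT 2 or WT 3). Stat3 and Socs3 lie on chromosome 11, where the median gene of A2 was lower.

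Some WNT, Notch and FGF genes passed the test, and most did not. Of all genes tested 6.93% rose and 4.15% fell, and without KO A2 2.33% rose and 2.24% fell. Of 26 WNT genes 3 rose (11.5%: Wisp1, Wnt7b and the receptor Fzd1, median 0.22). Without KO A2 2 rose (7.69%, median 0.00), and Fzd1 had an adjusted p of 0.107. Of 16 Notch genes 3 rose (18.8%, median 0.40), and 2 without KO A2 (12.5%, median 0.55). Notch1, a receptor, was at 50.6, 50.6 and 40.7 CPM in WT and 77.1, 95 and 55 CPM in KO (adjusted p = 0.0192; 0.00208 without KO A2). Hes1, its transcriptional target, was at 14.2, 12.8 and 10.7 and 26.6, 25.7 and 15.5 CPM (adjusted p = 0.0318; 0.0113 without KO A2). In both, A5 and B1 were higher than A2, and both lost the call without any 1 WT library (adjusted p up to 0.121 (Hes1)), Hes1 also without A5 or B1. Of 22 FGF and ERK genes 1 rose (4.55%) and 2 fell (9.09%), and without KO A2 1 rose (4.55%) and 4 fell (18.2%). Etv5, a transcription factor induced by FGF signalling, was at 366, 345 and 339.8 CPM in WT and 231, 191 and 207 CPM in KO. It fell by -0.74 ± 0.11 (adjusted p = 0.00337), and by -0.73 ± 0.13 without KO A2 (adjusted p = 0.00401), and held with any 1 library left out (adjusted p up to 0.024). Etv5 lies on chromosome 16, whose median was lower in B1 and A2, but A5, without that shift, was also below every WT library.

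Among the genes that fell were some formative and shared pluripotency genes. The formative list had 3 of 26 members lower (11.5%, against 4.15% of all genes) and 1 higher, and 4 lower without KO A2, with medians of -0.43 and -0.36. Of its members 13 were below WT in all 3 KO libraries without overlap, against 16.3% of all genes. Fgf5, the growth factor that marks EpiLC, was at 66.1, 50.6 and 49.6 CPM in WT and 19.2, 22.4 and 21.2 CPM in KO. It fell by -1.40 ± 0.35 (adjusted p = 0.0235), and by -1.41 ± 0.33 without KO A2 (adjusted p = 0.0255). Otx2, a transcription factor that drives the formative state, was at 119, 117 and 103 CPM in WT and 53.3, 64.5 and 14.5 CPM in KO, with A2 far below A5 and B1. Its values were -1.36 ± 0.38 (adjusted p = 0.0337) and, without KO A2, -0.94 ± 0.26 (adjusted p = 0.0469; 0.0746 with the block). Dnmt3a, a de novo DNA methyltransferase, was at 1447, 1439.6 and 1391 and 900.00, 972 and 779.99 CPM (-0.69 ± 0.15, adjusted p = 0.0144; without KO A2 -0.61 ± 0.16, adjusted p = 0.0375, or 0.0588 with the block). All 3 lost the call without any 1 WT library (adjusted p up to 0.102 (Fgf5)). Dnmt3b and Pou3f1 did not pass, with log2 fold changes of -0.81 ± 0.30 (adjusted p = 0.0901) and -0.67 ± 0.28 (adjusted p = 0.127).

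Shared pluripotency genes, active in naive and formative cells, had 4 of 18 lower (22.2%; median -0.31) and 3 without KO A2 (median -0.28). Gdf3, a TGF-beta family ligand, was at 589.8, 630.00 and 684 CPM in WT and 413, 462 and 345 CPM in KO (-0.64 ± 0.11, adjusted p = 0.00516; without KO A2 -0.54 ± 0.10, adjusted p = 0.00917). Utf1, a chromatin-associated pluripotency factor, was at 495, 500.05 and 473 and 293, 347 and 350.2 CPM (-0.57 ± 0.10, adjusted p = 0.00513; without KO A2 -0.61 ± 0.10, adjusted p = 0.00361). In both genes the 3 KO libraries were close to each other and below every WT library, and both held with any 1 library left out (adjusted p up to 0.0344 (Utf1)). Dppa4 was at 162, 154 and 152 and 113, 87.7 and 90.00 CPM (adjusted p = 0.0425), lost the call without KO A2 (0.131) and lies on the shifted chromosome 16. Pou5f1 (Oct4), at 836, 823 and 777 CPM in WT and 532, 601 and 671 CPM in KO, missed the threshold (adjusted p = 0.0699; 0.0764 without KO A2), and Sox2 was at 199, 170.2 and 155 and 156, 137 and 246 CPM (adjusted p = 0.889).

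The other leading genes that fell have varied known roles. Arl4d, a small GTPase of the ARF family, was at 34.3, 28.7 and 30.8 CPM in WT and 11.1, 11.8 and 11 CPM in KO (-1.47 ± 0.18, adjusted p = 0.00175; without KO A2 -1.44 ± 0.21, adjusted p = 0.00143). Plcd1, a phospholipase C, was at 89.1, 79.8 and 75.1 and 35.4, 22.4 and 34.3 CPM (-1.40 ± 0.16, adjusted p = 0.00149; without KO A2 -1.48 ± 0.17, adjusted p = 0.000387). Rpl39l, a ribosomal protein paralogue, was at 53.2, 40.02 and 41.7 and 23.8, 12.6 and 14.5 CPM (-1.40 ± 0.25, adjusted p = 0.00763; without KO A2 adjusted p = 0.019). In these genes every KO library was below every WT library. The KO libraries were close together for Arl4d, while Plcd1 was lowest in B1 and Rpl39l was higher in A5 than in B1 and A2. Rpl39l lies on chromosome 16, whose median was lower in B1 and A2, and Arl4d on chromosome 11, whose median was lower in A2. Ccdc3, a secreted coiled-coil protein, was at 14.2, 13.8 and 15.6 and 3.70, 5.29 and 2.86 CPM (-1.88 ± 0.31, adjusted p = 0.00416; without KO A2 adjusted p = 0.00771). These 4 kept the call with any 1 of the 6 libraries left out (adjusted p up to 0.0433 (Rpl39l)). Rhox5, an X-linked homeobox gene, was at 646, 617 and 643 CPM in WT and 266, 154 and 110.2 CPM in KO (adjusted p = 0.014; 0.0389 without KO A2). Xist, the RNA of X inactivation, was low throughout, at 19.4, 24.7 and 20.1 and 2.08, 10.1 and 5.00 CPM (adjusted p = 0.0189; 0.0333 without KO A2), and cannot be told from its antisense partner Tsix where counting ignored strand, which is not given in the sources used here. Of the 10 tested genes of the X-linked list that holds both, 2 fell (Rhox5 and Xist) and 2 rose with all libraries (Rhox9, 3.29, and Rhox6, 3.00). The calls of Rhox9 (adjusted p = 0.0306) and Rhox6 (adjusted p = 0.0428) ended without KO A2 (adjusted p = 0.367 and 0.536). Rhox genes have close copies, so their counts are uncertain. The remaining leaders were Rcsd1, Slc35d3, Capn3, Grm6 and Ryr3. Their log2 fold changes were -1.97, -1.72, -1.60, -1.56 and -1.38 (-2.37, -1.32, -1.87, -1.47 and -1.33 without KO A2). Of these leaders, Rcsd1 lies on the shifted chromosome 1 and Grm6 on the shifted chromosome 11. Rhox5, Xist and these 5 remaining leaders lost the call without any 1 WT library, and Rcsd1 also without B1 (adjusted p up to 0.125 (Grm6)).

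Naive pluripotency genes depended on KO A2. With all libraries 1 of 25 rose (Stat3) and 1 fell (Nr0b1), with a median of 0.14. Without KO A2 1 rose and 6 fell, with a median of -0.22. In single libraries the medians were 0.03 in A5, -0.71 in B1 and 0.65 in A2, against -0.18 to 0.17 in WT libraries. Nr0b1 (Dax1), an atypical nuclear receptor of the naive network, was at 22.5, 17.8 and 15.6 CPM in WT and 5.56, 3.28 and 11.9 CPM in KO, all below WT (-1.42 ± 0.37, adjusted p = 0.025; without KO A2 -2.06 ± 0.36, adjusted p = 0.00437; up to 0.0951 without a WT library, and without KO A2 and B1 together 0.0584). Nanog was at 32, 29.9 and 23.2 CPM in WT, 19 and 11.8 CPM in A5 and B1 and 63.8 CPM in A2 (without KO A2 -0.87 ± 0.23, adjusted p = 0.0387; with it adjusted p = 0.831). Fgf4 was at 149, 141 and 128 CPM in WT and 49.3, 63 and 214 CPM in KO (without KO A2 -1.31 ± 0.21, adjusted p = 0.00275; with it 0.56). Mybl2, a cell cycle factor, was at 241, 244 and 215 and 127, 122 and 256 CPM (without KO A2 -0.90 ± 0.09, adjusted p = 6.45e-05; with it 0.117). In Nanog, Fgf4 and Mybl2 A5 and B1 were below and A2 above every WT library, as for Esrrb. Zfp42 (Rex1) and Dppa5a, the gene behind the Esg1 reporter, showed the same order and fell without KO A2 by -0.80 ± 0.21 (adjusted p = 0.0385) and -0.54 ± 0.13 (adjusted p = 0.0275). When 1 more library was left out beside KO A2, Mybl2 held (adjusted p up to 0.00235), Fgf4 lost the call without A5 (0.053), and Nanog, Zfp42 and Dppa5a lost it without B1 and without WT 1 or WT 2 (up to 0.27, 0.298 and 0.202). Tfcp2l1 was at 15.7, 12.8 and 11.5 CPM in WT, 10.4 and 6.81 CPM in A5 and B1 and 74.3 CPM in A2 and did not pass either way (adjusted p = 0.245 and 0.561).

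Some glycolytic genes fell by small amounts. In glycolysis and glucose uptake 10 of 30 members fell (33.3%; median -0.28) and 1 rose, and 7 fell without KO A2 (median -0.28). Eno1 was at 593, 583 and 622 CPM in WT and 353, 370.1 and 418 CPM in KO (-0.66 ± 0.09, adjusted p = 0.00189; without KO A2 -0.73 ± 0.09, adjusted p = 0.000521). Ldha, the lactate dehydrogenase chain that favours lactate, was at 1214, 1095 and 1166 and 759, 807 and 604 CPM (-0.68 ± 0.13, adjusted p = 0.00957; without KO A2 adjusted p = 0.022). Ldhb, the other chain, was at 102, 101 and 98.8 and 57.2, 67.8 and 34.3 CPM (-0.92 ± 0.21, adjusted p = 0.018; without KO A2 adjusted p = 0.0356). No KO library of these genes reached WT. Eno1 and Ldha held with any 1 library left out (adjusted p up to 0.0456 (Ldha)), and Ldhb lost the call without any 1 WT library (up to 0.0621). Such enzymes and ribosomal proteins have processed copies in the genome, which could take some of their reads.

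Some nuclear genes of the respiratory chain fell with all libraries, and fewer without KO A2. Of 37 genes of complex I 7 fell (18.9%; median -0.28), 3 with the block, and 1 without KO A2 (median -0.16). Of 37 genes of complexes II to V 12 fell (32.4%; median -0.30), 7 with the block, and 1 without KO A2 (median -0.20). Limma-trend without the block called 2 genes of complex I and 4 of complexes II to V with all libraries. Ndufa5, of complex I, was at 48, 47.4 and 51.4 CPM in WT and 32.2, 35.8 and 18.3 CPM in KO (adjusted p = 0.0232; 0.0482 without KO A2, where the block gave 0.0722). Atp5o, of ATP synthase, was at 294, 279.7 and 301 and 230.2, 183 and 127 CPM (adjusted p = 0.0274; 0.0872 without KO A2) and lies on chromosome 16. Among 49 cytosolic ribosomal proteins 10 fell (20.4%; median -0.28), 4 with the block and 2 without KO A2 (median -0.23). For 34 of the 49 all KO libraries were below WT without overlap, against 16.3% of all genes. Rpl12 was at 108, 101 and 95.7 CPM in WT and 76.4, 72.9 and 72.6 CPM in KO (-0.45 ± 0.10, adjusted p = 0.0129; without KO A2 adjusted p = 0.0281). Of 30 DNA replication genes 5 fell (16.7%; median -0.28), 3 with the block and 1 without KO A2. Gins2, of the replicative helicase, was at 105, 109.9 and 105 and 74.1, 78.9 and 55.5 CPM (adjusted p = 0.022; 0.0654 without KO A2). With 1 library left out these 4 genes reached adjusted p values up to 0.0883 (Atp5o). None of 26 mitosis genes passed with edgeR (2 at an unadjusted p under 0.05, and 0 with DESeq2 and with limma).

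Some targets of p53 and early stress genes rose, and most members of both lists did not pass. Of 28 p53 targets 11 rose (39.3%; median 0.46), and 7 without KO A2 (median 0.24). Perp, a desmosomal protein that p53 induces, was at 8.91, 9.64 and 12.5 CPM in WT and 25.2, 25.5 and 73.1 CPM in KO (1.99 ± 0.36, adjusted p = 0.00693; without KO A2 1.29 ± 0.22, adjusted p = 0.00437), and held with any 1 library left out (up to 0.0433). Plk2, a kinase induced by p53, was at 39.1, 42.5 and 34.7 and 53.5, 72.6 and 247 CPM, and its call (adjusted p = 0.0235) ended without KO A2 (adjusted p = 0.0849). Of 19 genes known to rise when cells are dissociated, 7 rose (36.8%; median 1.32), and 5 without KO A2 (median 0.67). Jun, an AP-1 subunit, was at 17.8, 11.6 and 12.3 CPM in WT and 32.4, 25.2 and 77.4 CPM in KO (adjusted p = 0.0114; 0.0225 without KO A2; up to 0.0564 without WT 2 or WT 3). Of 20 unfolded protein response genes 4 rose (20.0%; median 0.06), and 2 without KO A2. Hspa5 (BiP), the main chaperone of the endoplasmic reticulum, was at 636, 657 and 679.9 CPM in WT and 905, 891 and 945 CPM in KO (0.47 ± 0.08, adjusted p = 0.00395; without KO A2 adjusted p = 0.00553), with the 3 KO libraries close together, and held with any 1 library left out (up to 0.0288). Srxn1, an antioxidant enzyme and NRF2 target, rose by 1.29 ± 0.25 (adjusted p = 0.00981; without KO A2 0.74 ± 0.12, adjusted p = 0.00228; up to 0.0484 without 1 library). Of the 19 NRF2 targets tested, Srxn1 among them, 2 rose (10.5%) and 3 fell (15.8%), against 6.93% and 4.15% of all genes. Without KO A2 1 rose (5.26%) and 2 fell (10.5%), against 2.33% and 2.24%. None of 25 ATF4 and amino acid stress genes passed with edgeR (4 at an unadjusted p under 0.05, 1 with DESeq2 and 0 with limma).

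Some genes of other cell types rose, several of them most in KO A2. Of 28 epithelial genes 7 rose (25.0%) and 2 fell (median 0.19), and 3 rose and 1 fell without KO A2. Cdh1 (E-cadherin) was at 729, 749 and 673 CPM in WT and 540.2, 638 and 568 CPM in KO, and its call (adjusted p = 0.0319) ended without KO A2 (0.0823), without A5 and without any WT library (up to 0.117) and with the block (0.0612). Krt7 was at 4.72, 4.45 and 2.61 and 11.1, 3.53 and 102 CPM (adjusted p = 0.0266; 0.282 without KO A2; 0.0955 with the block), so that B1 lay within the WT range and A2 far above it. Of 12 mesenchymal regulators 3 rose with all libraries (median 1.31), 1 with the block, and without KO A2 edgeR called 0 (3 at an unadjusted p under 0.05, 0 with DESeq2 and with limma; median 0.07). Vim, the mesenchymal intermediate filament, was at 192, 196 and 199 CPM in WT and 214, 158 and 1461 CPM in KO and did not pass (adjusted p = 0.0669). Of 15 trophoblast genes 6 rose (40.0%; median 1.18), 3 with the block, and 1 without KO A2 (Krt8; median 0.20). Hand1, a factor of mesoderm and trophoblast, was at 0.786, 0.988 and 0.782 CPM in WT and 8.10, 2.02 and 40.2 CPM in KO (adjusted p = 0.0163; 0.0903 without KO A2, or 0.0389 with the block).

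Among endoderm genes 3 of 11 rose (27.3%; median 1.33), and 2 without KO A2 (median 0.81). Dab2, an adaptor protein of endocytosis, was at 5.24, 6.18 and 5.48 CPM in WT and 18.8, 10.8 and 16.2 CPM in KO (1.43 ± 0.29, adjusted p = 0.0108; without KO A2 1.39 ± 0.29, adjusted p = 0.0151; up to 0.0521 without WT 1 or WT 3). Cubn, an endocytic receptor of visceral endoderm, was at 0.524, 0.988 and 1.30 and 22.7, 2.02 and 7.86 CPM and rested on A5 (adjusted p = 0.0264; up to 0.102 without A5 or 1 WT library). Of 9 neural ectoderm genes 2 rose (22.2%), and 1 without KO A2 (11.1%), against 6.93% and 2.33% of all genes. Nes (nestin), an intermediate filament of neural progenitors, was at 88.3, 88.9 and 88.1 CPM in WT and 162, 237 and 195 CPM in KO, highest in B1. It rose by 1.16 ± 0.18 (adjusted p = 0.00395), and by 1.17 ± 0.19 without KO A2 (adjusted p = 0.00361), and held with any 1 library left out (up to 0.0274). Germ cell genes stayed near the background, with 2 of 23 higher (8.70%) and 1 lower (4.35%; median 0.02), against 6.93% and 4.15% of all genes. Without KO A2 1 was higher (4.35%) and 0 lower (median 0.20). Prdm1, the regulator that starts germ cell fate, was at 3.67, 3.21 and 2.87 CPM in WT and 4.17, 4.03 and 13.1 CPM in KO and did not pass (adjusted p = 0.082). Nanos3 had 0 counts in WT and 10 in KO, at least 3.23-fold higher against a WT level set at 3 counts in all and at least 2.47-fold without KO A2, and its call (adjusted p = 0.0276) ended without KO A2 (0.138) and with the block (0.0786).

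Imprinted, interferon and lysosomal genes gave smaller groups of calls. Of 24 imprinted genes 5 rose (20.8%; median 0.11), and 1 without KO A2. H19, a maternally expressed RNA, was at 87.6, 82.3 and 69.1 CPM in WT and 379, 87.7 and 2421 CPM in KO, with B1 just above WT (adjusted p = 0.0147; 0.057 without KO A2; up to 0.0613 without 1 library). Nnat (neuronatin), the gene that held without KO A2, was at 24.6, 21.2 and 25.6 and 60.4, 52.9 and 148 CPM (adjusted p = 0.0152; 0.0418 without KO A2; up to 0.0684 without 1 WT library). Of 21 interferon and antigen presentation genes 2 rose and 2 fell (9.52% each, against 6.93% and 4.15% of all genes). Without KO A2 1 rose (4.76%) and 2 fell (9.52%), against 2.33% and 2.24%. Ifitm1, a membrane protein of a family of close copies, was at 45.9, 34.6 and 34.4 and 22.7, 12.6 and 23.8 CPM (adjusted p = 0.0105; 0.00645 without KO A2; 0.0521 without WT 1). Of 28 lysosome and autophagy genes 4 rose (14.3%; median 0.22), and 2 without KO A2. Lamp2, a lysosomal membrane protein, was at 39.3, 38.5 and 36.5 CPM in WT and 67.6, 66.5 and 158 CPM in KO (adjusted p = 0.0117; 0.022 without KO A2; up to 0.0524 without 1 WT library).

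The KO effect in EpiLC was then set beside the effect in PGCLC of the same lines. Of the 255 genes higher in EpiLC with and without KO A2, 24 (9.41%) were also called higher at day 3 and 10 were called lower there, and 45 (17.6%) and 19 at the late time. Of the 211 lower genes 22 (10.4%) were also called lower at day 3 and 16 higher, and 28 (13.3%) and 21 at the late time. At day 3 10.2% of all genes tested were called in either direction, and 17.5% at the late time. Those shares of all genes count both directions, so they are no like measure for the shares above, which count 1 direction. The median log2 fold change of the higher genes was 1.07 in EpiLC, 0.17 at day 3 and 0.13 late, and that of the lower genes -0.58, -0.04 and -0.06. These genes were chosen for their EpiLC values, so a smaller median at other times is in part fixed by the choice. The difference itself passed the interaction test for 847 genes (6.59%) against day 3 and 1318 (10.3%) against the late time, or 1028 (8.0%) and 1532 (11.9%) without KO A2. Rhox5 was lower at all 3 times, by -1.85 ± 0.39 in EpiLC, -1.56 ± 0.40 at day 3 (adjusted p = 0.0214) and -1.68 ± 0.39 late (adjusted p = 0.0079). Plcd1 was also lower at all 3, by -1.40 ± 0.16, -0.64 ± 0.15 (adjusted p = 0.0152) and -1.30 ± 0.15 (adjusted p = 3.24e-05). Nr0b1 was also called lower at day 3 (-2.03 ± 0.36, adjusted p = 0.00234) but not late (adjusted p = 0.0792). Ccdc3 was also called lower late (-1.37 ± 0.29, adjusted p = 0.0037) but not at day 3 (adjusted p = 0.748). Fgf5, lower in EpiLC, was called higher late (3.23 ± 0.87, adjusted p = 0.0172). Wnt7b was called higher in EpiLC and lower at the late time, with log2 fold changes of 6.19 ± 1.38, -2.22 ± 0.87 (adjusted p = 0.117) and -3.27 ± 0.90 (adjusted p = 0.0208). PGCLC were sorted and EpiLC were not, so stage and sort cannot be told apart.

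**Figure D5:**
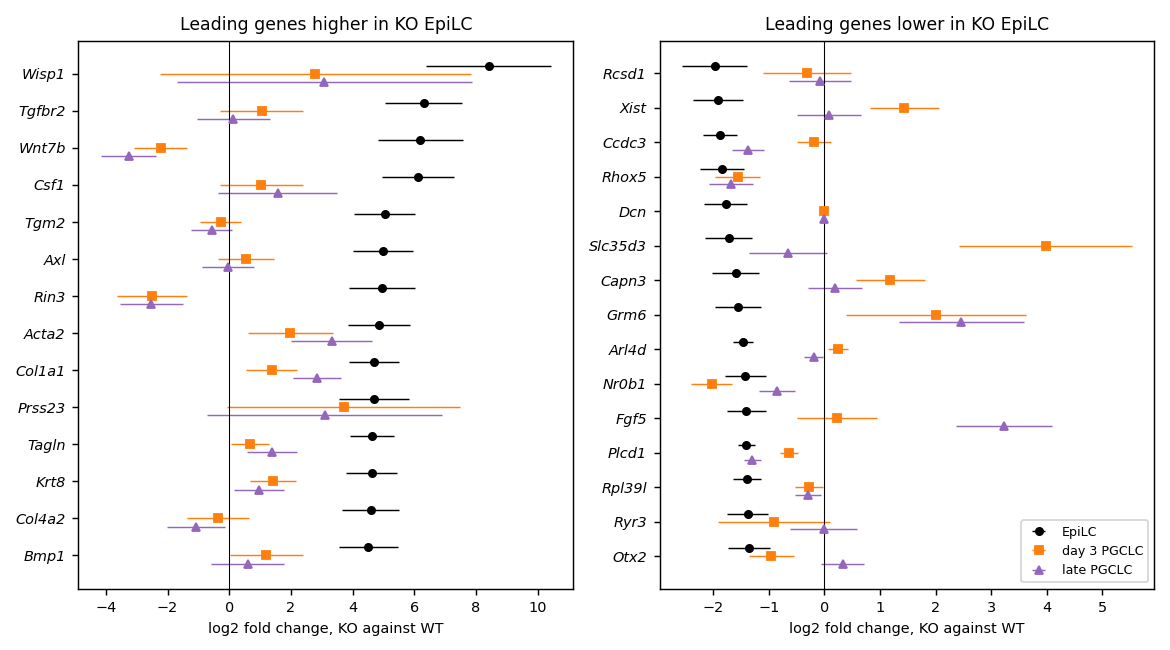
Log2 fold change of KO against WT (x axis, bars of 1 SE) for the leading genes in EpiLC, day 3 PGCLC and late PGCLC, 3 libraries a group. Of the genes higher in EpiLC, Wnt7b, Rin3, Tgm2 and Col4a2 lie left of 0 at both PGCLC times. Of the lower ones Rhox5, Plcd1, Nr0b1, Ccdc3, Rpl39l, Ryr3 and Rcsd1 lie left of 0 at all times. Dcn had 0 counts in all PGCLC libraries, so its PGCLC points at 0 without a bar are no measurement. Other genes with few counts in PGCLC have wide bars.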

How the data were processed

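The authors deposited a table of raw counts by Ensembl gene for every library, and 1 CPM table of the series. In all 18 columns the deposited CPM is the count over the library total, and the counts were analysed. Trimming with Trim Galore 0.4.3.1 and the builds mm10 and GRCm38.p4 are named per the submitters' processing notes. The aligner, counting tool, annotation and strand setting were not given in the sources used here. Of 25965 rows, 56 without a gene ID (0.0559% to 0.0688% of EpiLC counts) were left out. Symbols are those of the CPM table, and GENCODE M21 (GRCm38) gave positions.

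Counts of all 18 libraries (EpiLC depth is in the report) were filtered by filterByExpr, scaled by TMM (0.964 to 1.04) and fitted in 1 edgeR 4.0.16 model (R 4.3.3) with a mean for each of 6 groups (robust quasi-likelihood, common dispersion 0.0283), and again without KO EpiLC A2. Groups came from the labels. The script was tested on simulated counts with known changes. Single-library log2 ratios used a prior count of 2 and have no test. Intervals are exact binomial at 95% and, like the floor of 3 counts, cover counting error only.

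Alternatives were RLE factors, no filter, DESeq2 1.42.0, limma-trend 3.58.1 on log2(CPM + 1), EpiLC alone, each library left out and line A2 left out. A further one was limma-trend with the replicate name as a random block. Deviations of EpiLC libraries from their group mean correlated with those of the same KO line at later times (0.11 to 0.219; other lines -0.244 to 0.0936) but not for WT numbers (-0.0479 to 0.00583), so KO names pair libraries across times, not KO with WT.

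Genes were named by rule: Esrrb, the 15 highest and 15 lowest fold changes among genes called both ways, reaching 5 CPM where higher and not overlapping, predicted models passed over, then up to 3 called members of a list in each direction, up to 2 others of a list described, and the 8 highest and 8 lowest gaps of KO A2 to the other EpiLC libraries among genes reaching 20 CPM. Nanog, Fgf4, Mybl2, Zfp42 and Dppa5a beyond these were taken since they were called only without KO A2. Members and lists were chosen with earlier results of these data known. A few genes that the rule names are not reported here.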

Additional observations from a re-analysis of the deposited data

Results flagged for a closer look

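For 16 of the leading genes of EpiLC the KO effect differed from the KO effect in PGCLC by edgeR's interaction test, at 1 or both later times. The values below are the log2 effect in EpiLC minus that in PGCLC, 3 libraries a group, with adjusted p over all genes tested. The leading genes were chosen for their EpiLC fold changes. The sign and size of these values are thus in part fixed by the choice. The fit did not pair libraries of a line across times. EpiLC were unsorted and PGCLC sorted, so stage and sort cannot be told apart.

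Genes higher in KO EpiLC had differences above 0. Wnt7b had the largest, 8.42 against day 3 (adjusted p = 0.00896) and 9.46 against the late time (adjusted p = 0.00239), and went from 5 counts in WT and 420 in KO EpiLC to 738 in WT and 73 in KO late PGCLC. Rin3, an adaptor of RAB5 signalling, had differences of 7.48 (adjusted p = 0.0122) and 7.48 (adjusted p = 0.00585), while its own KO effect did not pass at either later time (adjusted p = 0.177 and 0.105). For Tgm2 the values were 5.31 (adjusted p = 0.0201) and 5.62 (adjusted p = 0.00936). Col4a2 gave 4.94 (adjusted p = 0.0397) and 5.66 (adjusted p = 0.0132). At 1 time the test passed for Tagln against day 3, 3.96 (adjusted p = 0.0244), and against the late time for Axl, 5.02 (adjusted p = 0.025), and Tgfbr2, 6.17 (adjusted p = 0.0476). These 7 genes also passed without KO A2 at the same times (adjusted p up to 0.0284). Tgfbr2 had 3 counts in WT EpiLC, so its value depends on the small count added in fitting.

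Genes lower in KO EpiLC had differences below 0. Arl4d had the lowest adjusted p, at -1.70 against day 3 (adjusted p = 0.0014) and -1.27 against the late time (adjusted p = 0.00504), with 242 and 243 counts in WT and KO at day 3. Against day 3 the values were -3.35 for Xist (adjusted p = 0.0175), -1.68 for Ccdc3 (adjusted p = 0.0308), -2.79 for Capn3 (adjusted p = 0.036, from 8 counts in WT and 16 in KO) and -0.76 for Plcd1 (adjusted p = 0.0484). Slc35d3 gave -5.70 against day 3 (adjusted p = 0.0493), where WT had 0 counts and KO 5, so this fitted value is no bound. Against the late time Rpl39l gave -1.11 (adjusted p = 0.0499), Fgf5 -4.64 (adjusted p = 0.00507) and Grm6 -4.01 (adjusted p = 0.047). In late PGCLC Fgf5 had 3 counts in WT and 30 in KO, and Grm6 1 and 7. Without KO A2 the tests for Grm6 (adjusted p = 0.0583) and Rpl39l (adjusted p = 0.0738) no longer passed.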

How the results depend on the processing

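The counts moved most with the samples fitted. With single EpiLC libraries left out, the 1424 calls ranged from 174 to 2449 (higher 97 to 1567, lower 73 to 882), the 588 without KO A2 from 105 to 202 (higher 50 to 128, lower 55 to 101), the 466 shared calls from 67 to 171, and the interaction calls from 381 to 1533 against day 3 and from 758 to 1951 against the late time. Where A5 or B1 was left out beside KO A2, the lone KO library was assumed to vary like the other groups. Fitting EpiLC alone gave 0 calls with KO A2 (0 higher, 0 lower, 0 shared) and 2050 without it (972 higher, 1078 lower). Leaving out all libraries of line A2, which removes the spread it adds at the other times, gave 1782 calls (851 higher, 931 lower) and 1896 and 2357 interaction calls. Without a filter on low counts 336 genes were lower. By limma-trend 586 were higher and 212 lower without KO A2, against 300 and 288. Limma-trend with the replicate block gave 1330 calls with all libraries (951 higher, 379 lower). Without KO A2 it gave 914 (655 higher, 259 lower), and 708 were shared. Using the core AAGGTCA in place of TCAAGGTCA raised the share of genes called lower with a match from 0.754% to 4.27%. The cause of these moves was not tested. RLE size factors, DESeq2 and leaving out the shifted chromosomes, the last in part chosen after seeing the data, kept these counts within 1.5 times. Of 117 named genes called, 19 passed in every fit without 1 library, and none of the 117 changed direction under these alternatives. Among named genes not called with all libraries, some did, such as Tfcp2l1 (log2 1.20 with all libraries, -0.62 without KO A2), Nanog (0.16 and -0.87) and Dppa5a (0.01 and -0.54). Counts near 0 limit Wisp1, Tgfbr2, Gata2, Msx1 and Nanos3.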

Other observations

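Some genes separated the library labelled KO A2 from the other 5 EpiLC libraries by the widest gap, chosen by that gap and so given without a test. Besides Wisp1 and Wnt7b, the highest in A2 were Tinagl1, a basement membrane protein, at 0.522 to 1.24 CPM in WT, 3.70 and 1.51 CPM in A5 and B1 and 105 CPM in A2, and Pmepa1, a feedback inhibitor of TGF-beta signalling, at 1.48 to 2.62, 1.39 and 2.02 and 57.4 CPM. Cryab, a small heat shock protein, was at 0.741 to 1.83 CPM in WT, 2.32 and 1.76 CPM in A5 and B1 and 52.6 CPM in A2. Col7a1, the collagen of anchoring fibrils, was at 6.82 to 9.39, 7.87 and 10.1 and 199.5 CPM. Among the lowest in A2, besides Y-linked genes, were Apoa2, an apolipoprotein, at 18.3 to 20.3 CPM in WT, 12 and 16.9 CPM in A5 and B1 and 0 CPM in A2, and the X-linked peptidase gene Usp26 at 76.1 to 79.95, 65.1 and 47.1 and 1.67 CPM.

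Counts of the Y-linked genes Ddx3y, Eif2s3y and Uty lay below every WT library in A5 and above every WT library in B1, whereas those of the Y-linked gene Ube1y1 lay above WT in both (26, 27 and 35 in WT, 40 in A5, 137 in B1 and 0 in A2). Ddx3y had 269, 280 and 249 counts in WT EpiLC, 165 in A5, 405 in B1 and 0 in A2. Eif2s3y had 263, 307 and 298 counts in WT, 145 in A5, 413 in B1 and 0 in A2. Uty had 77, 77 and 80 counts in WT, 54 in A5, 140 in B1 and 0 in A2.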
